A study of Arabidopsis thaliana with 12 samples.

Results

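Class III peroxidases are secreted plant enzymes, and 60 Arabidopsis thaliana genes of this family were followed in roots supplied with NH4+ or NO3-. The genes were taken as a fixed list of gene identifiers that carry PER numbers of the family, a few members described as weakly expressed being left out of it. This list, and the lists of roles used below, were chosen with earlier results of these data known. Of the 60 genes, 58 had a row in the table of counts, which held 26568 genes in all, and 53 passed the filter on low counts, as did 19327 genes of the whole table. AT2G22420 and PRX33 had no row and were not analysed here. The 5 genes with a row that did not pass, AT1G05240, PRX2, PER36, AT5G58390 and AT5G58400, had at most 8 counts in any library.

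The roots were those of natural accessions without a transgene, Or-1, described as tolerant of NH4+, and Rak-2, described as sensitive to it. Seedlings of both ecotypes were raised hydroponically on NO3- for 5 days, held without nitrogen for 3 days according to the methods of the study, and then given 1 mM (NH4)2SO4 or 1 mM Ca(NO3)2 for 1 day. The deposited labels mention the 5 days on NO3- and the day of treatment only. Each of the 4 groups held 3 libraries, which the methods call biological replicates and the labels number 1 to 3. The NO3- groups are the reference for the response of each ecotype. Words such as rose, fell, raised and lowered give the level on NH4+ relative to NO3-. No group was sampled before treatment or kept without nitrogen, so a change by NH4+ cannot be told apart from one by NO3-. The comparison of the ecotypes within a nitrogen source asks how the family differs between roots of Or-1 and Rak-2. With a single accession of each kind, tolerance and other differences between the accessions cannot be told apart.

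Class III peroxidases carry a haem group and work in the cell wall and the vacuole. With H2O2 as the oxidant they couple monolignols into lignin and cross-link wall proteins such as extensins, which stiffens the wall, and in another reaction cycle they can release reactive oxygen species that loosen it. In roots, members of the family are known from the lignified ring of the endodermis called the Casparian strip, from xylem vessels, from growing root hairs and from the oxidative burst that follows wounding or the sensing of microbes.

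Library totals lay between 16005610 and 22388738 counts. Levels are given as CPM, counts divided by a library size that edgeR's TMM method had scaled, and, where genes are compared with each other, as TPM, which also divides by gene length. All 4 root markers were detected in every library, and their summed level of 792 to 4826 CPM was mostly that of PYK10, a root myrosinase. The summed level of 6 photosynthesis genes ranged from 10.8 to 1059 CPM between libraries and overlapped between all groups, and its part in the results was not tested. The Rak-2 NO3- libraries differed most among themselves, their biological coefficient of variation being 0.343, whereas it was 0.158 for Rak-2 on NH4+, 0.223 for Or-1 on NH4+ and 0.241 for Or-1 on NO3-. In roots taken whole, fewer cells of a type and less RNA per cell cannot be told apart.

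The family was abundantly expressed and its transcripts were shared very unevenly. Summed over the listed members alone, it made up 1.65% to 2.23% of all transcripts in the 12 libraries. The 5 most abundant genes accounted for a median of 53.1% of that sum. The sum was 18834 ± 792 TPM (SD, n = 3) in Or-1 on NH4+ and 17596 ± 1525 TPM in Or-1 on NO3-. In Rak-2 it was 17567 ± 618 TPM on NH4+ and 20395 ± 1744 TPM on NO3-. The libraries of the Or-1 groups overlapped, while every Rak-2 NO3- library was above every Rak-2 NH4+ library.

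PRXR1 and Prx37 led the family. PRXR1 was at 2229 ± 410 TPM in Or-1 on NH4+ and at 2672 ± 270.2 TPM on NO3-, against 5105 ± 619 and 4874 ± 1641 TPM in Rak-2 (SD, n = 3). Prx37, which has been tied to wall stiffening and short stature when overexpressed, was at 3235 ± 366 and 2151 ± 238 TPM in Or-1 and at 1585 ± 281 and 2108 ± 590.1 TPM in Rak-2. Prx37 was therefore the most abundant member in Or-1 on NH4+, and PRXR1 in the other 3 groups. Next in order came AT3G32980 with a mean of 1486 TPM over all libraries, AT5G19890 with 1466 TPM and AT4G08780 with 1074 TPM. On NH4+, AT3G32980 was above AT5G19890 in Or-1 (1633 ± 131 against 1299 ± 227 TPM). In Rak-2 on NH4+ it was below AT5G19890 (1097 ± 93.8 against 1652 ± 228 TPM). The difference between these genes was not tested. At the low end of the tested genes were RHS18 at 1.86 TPM, AT4G31760 at 1.27 TPM and AT2G39040 at 0.701 TPM.

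**Figure D1:**
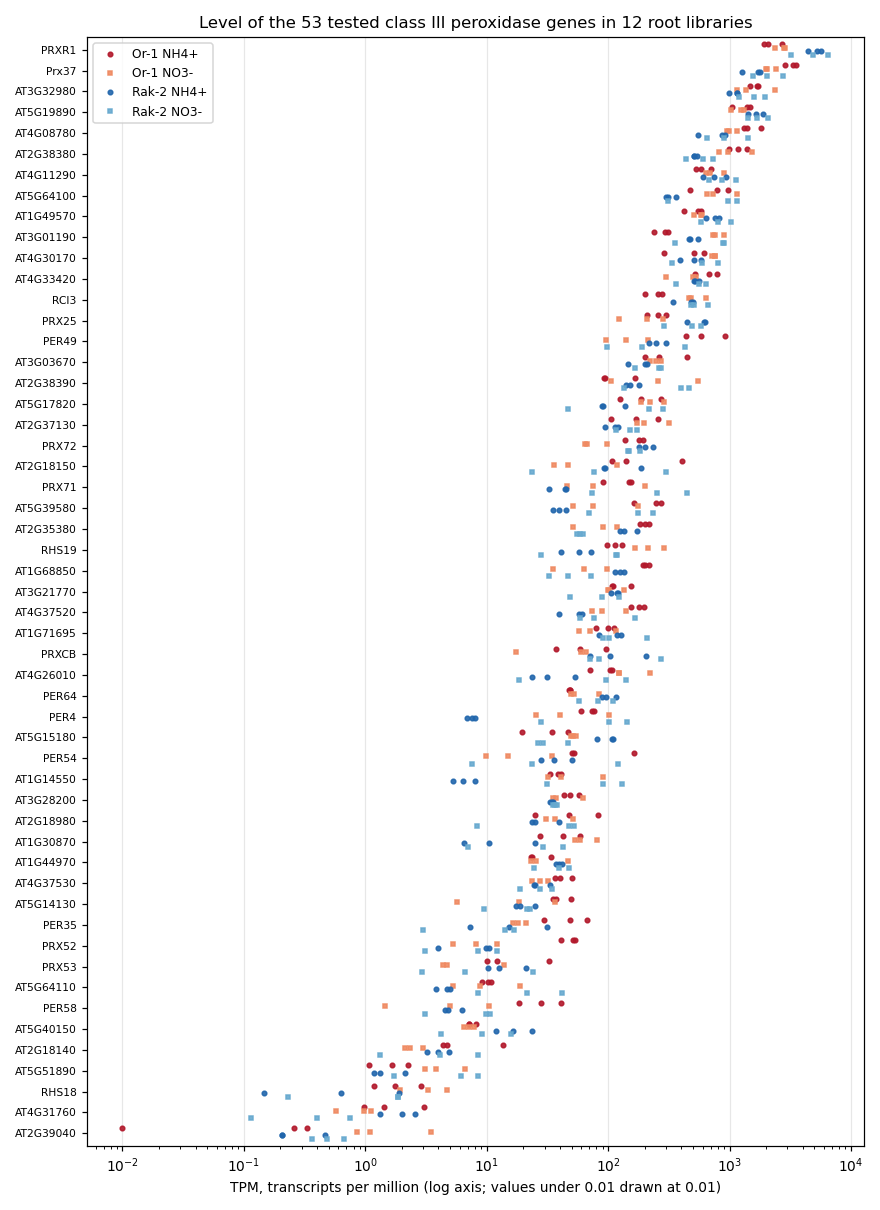
Level in TPM (log axis) of each of the 53 tested class III peroxidase genes, one point per library, with circles for NH4+ and squares for NO3-, red and orange for Or-1 and blues for Rak-2. Mean levels run from 3720 TPM for PRXR1 down to 0.701 TPM for AT2G39040, of which 1 library with no count is drawn at 0.01 TPM, and for PER4 and AT1G14550 the 3 Rak-2 NH4+ libraries stand to the left of the other 9.

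Sequence limits what can be counted for a few members, as the RefSeq gene models of the TAIR10.1 assembly show. These models come from the reference accession and not from Or-1 or Rak-2, and the reads of both ecotypes were counted on one set of models, so that a sequence difference between ecotypes and a difference in level cannot be told apart. Coding sequences of the 60 genes were between 53.7% and 100% identical over 1770 pairs, with a median of 60.3%. The highest value belonged to AT1G05240 and PRX2, neighbours on chromosome 1 with the same 978 coding bases. Every stretch of 100 bases in the PRX2 transcript also occurs in AT1G05240, and 58.6% of those of AT1G05240 occur in PRX2. The first 150 coding bases, shown because the pair was almost without counts, read the same in both genes.
AT1G05240: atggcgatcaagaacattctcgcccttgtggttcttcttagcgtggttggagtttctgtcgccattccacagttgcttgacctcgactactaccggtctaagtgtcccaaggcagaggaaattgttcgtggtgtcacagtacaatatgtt
AT1G05240 had 2, 0 and 1 counts in Or-1 on NH4+, 0, 2 and 2 on NO3- and none in Rak-2, and PRX2 had a single count in 1 of 12 libraries. AT1G05240 is a root hair peroxidase, and how reads that fit both genes were treated is not given in the sources used here, so no level is given for these 2 genes.

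Other close relatives shared few stretches of 100 bases, though how their reads were assigned is not known. Prx37 and AT4G08780, which lie next to each other on chromosome 4, shared 93.8% of 1041 coding bases, and 0.154% of the 100-base stretches of Prx37 occur in AT4G08780. The first 150 coding bases of both are set side by side, since both belong to the 5 most abundant members, with the 9 bases at which they differ in capitals.
Prx37: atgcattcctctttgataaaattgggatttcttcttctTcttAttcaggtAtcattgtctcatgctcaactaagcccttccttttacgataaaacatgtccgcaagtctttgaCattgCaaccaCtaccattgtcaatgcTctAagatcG
AT4G08780: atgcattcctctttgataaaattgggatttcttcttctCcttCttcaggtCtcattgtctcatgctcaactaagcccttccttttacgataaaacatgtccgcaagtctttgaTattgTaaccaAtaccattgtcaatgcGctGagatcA
Among the 60 genes, 3 shared more than 10% of their 100-base stretches with another gene on either strand. The third, AT5G40150, shares 13.1% with AT5G40153, a gene on the opposite strand. In all, 9 members overlap a gene on the opposite strand, PER64 among them, and since no source states that strand was used in counting, reads of such partners cannot be told apart.

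In Or-1, NH4+ against NO3- raised 6 and lowered 3 of the 53 tested members, where a call needed an adjusted p (the FDR of Benjamini and Hochberg) under 0.05 in edgeR's quasi-likelihood test together with a change of over 1 on the log2 scale. Of all 19327 genes tested, 5.26% were called higher and 3.6% lower. The members that rose were PRX52, PER58, PER49, AT1G68850, AT2G35380 and PRX72, and those that fell were AT2G39040, AT3G01190 and RCI3. The median log2 fold change of the members was 0.14, against -0.04 over all genes, and the groups did not overlap for 22 members, against 36.5% of all genes.

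PRX52, a peroxidase of lignifying xylem and fibre cells, had the largest increase. Its level was 37.1, 30.4 and 38.8 CPM on NH4+ and 3.97, 9.04 and 6.09 CPM on NO3-. Every NH4+ library was well above the NO3- libraries, and the log2 fold change was 2.47 (SE 0.47, adjusted p = 0.00445 by edgeR's quasi-likelihood test). PER58 was at 30.2, 21.1 and 13.7 CPM on NH4+ and at 8.10, 3.77 and 1.1 CPM on NO3-, with a log2 fold change of 2.33 (SE 0.63, adjusted p = 0.0273, edgeR). PER49, a member of high level, was at 336, 455 and 697 CPM on NH4+ and at 76.7, 111 and 168 CPM on NO3-. The lowest NH4+ library of PER49 was above the highest NO3- library, at a log2 fold change of 2.07 (SE 0.46, adjusted p = 0.0107, edgeR).

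PRX72, needed for normal stem lignin and also found at the Casparian strip, was at 111, 148 and 155 CPM on NH4+ and at 55.6, 52.7 and 80.2 CPM on NO3-, without overlap. Its log2 fold change was 1.14 (SE 0.19, adjusted p = 0.00218, edgeR). RCI3, named for its induction by cold and known to take part in the response to low potassium, moved the other way, with 195, 184 and 139.9 CPM on NH4+ and 339, 344 and 454 CPM on NO3-. The NH4+ libraries of RCI3 were all below the NO3- libraries (log2 fold change -1.13, SE 0.21, adjusted p = 0.00418, edgeR). AT3G01190 was at 223, 240.2 and 181 CPM on NH4+ against 709, 562 and 590.5 CPM on NO3-, and its log2 fold change was -1.53 (SE 0.31, adjusted p = 0.00614, edgeR). AT2G39040 was close to the limit of detection, with 4, 5 and 0 counts on NH4+ and 12, 50 and 19 counts on NO3-.

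Leaving out single Or-1 libraries ended 4 of these 9 calls. RCI3 was lost without NO3- replicate 3 (-0.96) and AT2G35380 without NO3- replicate 1 (0.94), PER58 without NH4+ replicates 1 or 2 or NO3- replicates 2 or 3 (1.89 to 3.18 over all 6 fits) and AT2G39040 without NH4+ replicates 1 or 3 or NO3- replicate 2 (-3.74 to -2.29), and the last 2 were also lost in a fit of the 6 Or-1 libraries alone. The numbers of the Or-1 libraries paired NH4+ with NO3- samples, and with the replicate number as a block 11 members were higher and 4 lower. Over all genes, the block took the higher from 1016 to 1133 and the lower from 696 to 839. The block added AT2G18140 (log2 fold change 1.42), AT2G18150 (1.62), PRX53 (1.24), PER54 (2.10) and AT5G39580 (1.28) to the higher members and AT2G38390 (-1.20) to the lower, and it ended no call.

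**Figure D2:**
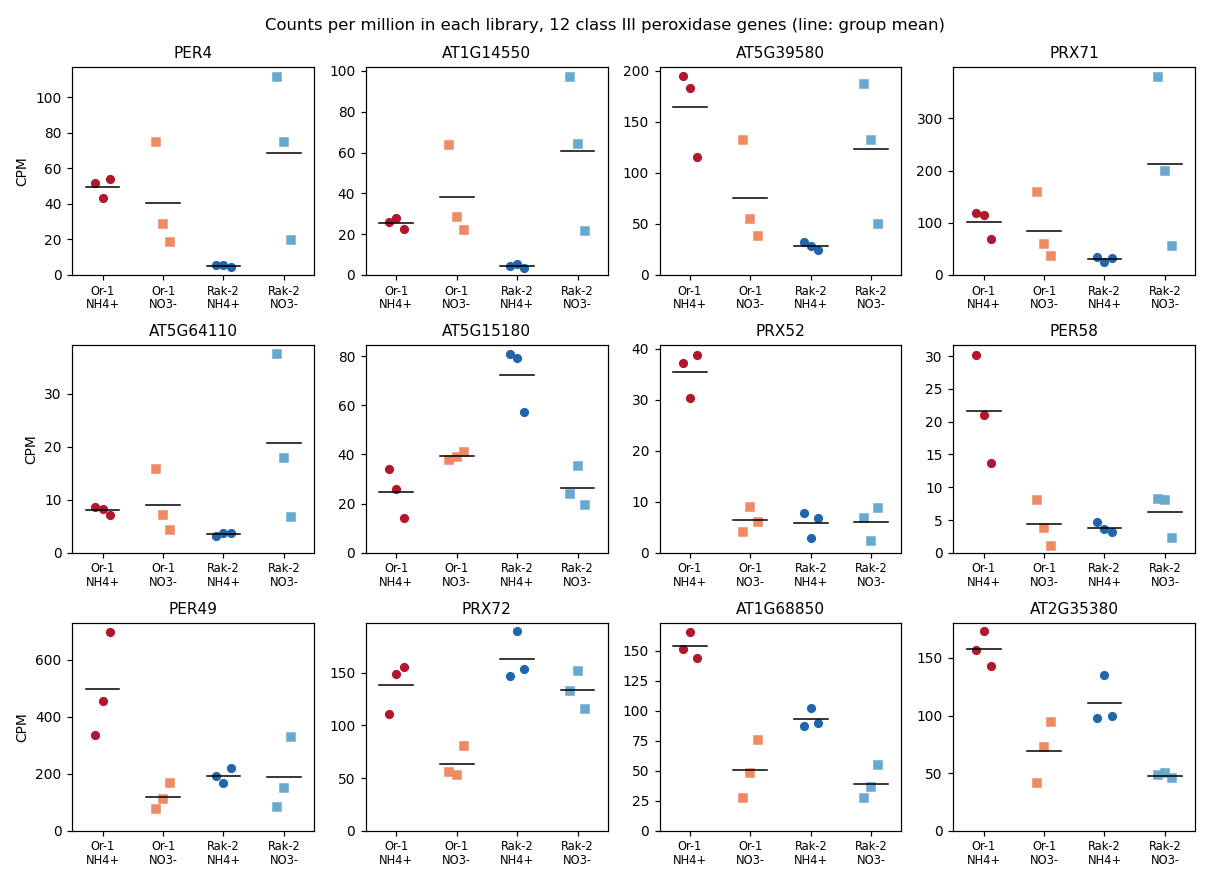
Level in CPM in each of the 12 libraries for 12 class III peroxidase genes, one panel per gene with its own axis from 0, circles for NH4+, squares for NO3- and a line at the group mean. PER4, AT1G14550, AT5G39580, PRX71 and AT5G64110 are lowest in the 3 Rak-2 NH4+ libraries, while PRX52, PER58 and PER49 are highest in the 3 Or-1 NH4+ libraries.

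In Rak-2, 5 members were lower and 3 higher on NH4+ than on NO3-. Of all genes tested, 3.4% were called lower and 2.69% higher there. PER4, AT1G14550, AT5G39580 and PRX71, all of the defence and wounding list, and AT5G64110 fell, whereas AT1G68850, AT2G35380 and AT5G15180 rose. The log2 fold change was negative for 39 of the 53 members, with a median of -0.30 against -0.01 over all genes, and the groups did not overlap for 11 members, against 32.1% of all genes.

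PER4 and AT1G14550, a pair of neighbours, fell the most. PER4 was at 5.72, 5.39 and 4.60 CPM on NH4+ and at 111, 74.7 and 19.7 CPM on NO3-, a level 13.1-fold lower on NH4+ (log2 fold change -3.71, SE 0.63, adjusted p = 0.00395 by edgeR's quasi-likelihood test). AT1G14550 was at 4.37, 5.49 and 3.43 CPM on NH4+ and at 97.0, 64.0 and 21.4 CPM on NO3-, which was 13.7-fold lower on NH4+ (log2 fold change -3.78, SE 0.55, adjusted p = 0.00167, edgeR). In both genes the 3 NH4+ libraries lay within a narrow range and the NO3- libraries spread widely, with replicate 3 the lowest.

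PRX71, a lignin peroxidase that restrains cell growth and responds to wall damage, was at 34.7, 25.1 and 31.9 CPM on NH4+ and at 380.1, 199.7 and 55.9 CPM on NO3- (log2 fold change -2.79, SE 0.66, adjusted p = 0.0203, edgeR). AT5G64110, its neighbour, was at 3.11, 3.82 and 3.82 CPM on NH4+ and at 37.4, 17.9 and 6.78 CPM on NO3- (log2 fold change -2.52, SE 0.58, adjusted p = 0.0175, edgeR). AT5G39580 was at 32.6, 28.5 and 24.2 CPM on NH4+ and at 187, 133 and 49.7 CPM on NO3- (log2 fold change -2.11, SE 0.51, adjusted p = 0.0225, edgeR). In all 3 genes the NO3- libraries were above every NH4+ library, and NO3- replicate 3 was again the nearest to them.

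AT5G15180 took the opposite direction, with 81.1, 79.4 and 57.1 CPM on NH4+ and 24.0, 35.4 and 19.6 CPM on NO3-. The groups were apart and the log2 fold change was 1.46 (SE 0.30, adjusted p = 0.00988, edgeR). In Or-1 the same gene was at 34.3, 26.1 and 14.2 CPM on NH4+ and at 37.9, 38.9 and 41.2 CPM on NO3-.

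The count of members that fell in Rak-2 rested on single libraries. It was 2 without NO3- replicate 1 or without any one of the 3 NH4+ replicates, and 11 without NO3- replicate 3, which added AT4G26010, AT4G37520, AT5G17820, AT5G51890, AT5G64100 and RHS19. Over all genes, 658 were lower with all libraries, 988 without NO3- replicate 3 and 385 to 492 in the fits that gave 2 members. PER4 and AT1G14550 were called in each of the 6 fits, AT5G39580 in 1 (log2 fold change -2.49 to -1.67), and AT5G64110 (-2.94 to -1.77) and PRX71 (-3.24 to -2.05) in 2, those without NO3- replicate 2 or 3 for the latter pair.

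The 250 bases upstream of the annotated gene start are shown for the 5 members that fell together in Rak-2, read 5′ to 3′ on the strand of the gene from RefSeq TAIR10.1. The W-box, TTGACC or TTGACT on either strand, is the letter pattern bound by WRKY factors and is in capitals. It occurred in 3 of these 5 windows, in 19 of the 60 of the family (31.7%) and in 28.4% of the 27443 windows of all protein-coding genes, and it shared no base with the other motifs searched. The windows are chr1:4975706-4975955 (minus strand) for PER4, chr1:4978672-4978921 (plus strand) for AT1G14550, chr5:15849142-15849391 (minus strand) for AT5G39580, chr5:25656068-25656317 (minus strand) for AT5G64110, chr5:25661008-25661257 (minus strand) for PRX71.
PER4: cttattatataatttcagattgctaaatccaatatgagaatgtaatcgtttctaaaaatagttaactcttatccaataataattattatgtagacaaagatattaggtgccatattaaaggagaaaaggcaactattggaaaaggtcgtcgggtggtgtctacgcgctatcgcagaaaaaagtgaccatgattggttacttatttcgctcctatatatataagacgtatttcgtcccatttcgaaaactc
AT1G14550: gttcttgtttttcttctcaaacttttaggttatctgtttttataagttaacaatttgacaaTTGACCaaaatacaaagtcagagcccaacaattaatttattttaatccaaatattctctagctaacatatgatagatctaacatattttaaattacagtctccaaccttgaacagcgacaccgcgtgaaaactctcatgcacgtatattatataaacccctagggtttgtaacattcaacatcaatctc
AT5G39580: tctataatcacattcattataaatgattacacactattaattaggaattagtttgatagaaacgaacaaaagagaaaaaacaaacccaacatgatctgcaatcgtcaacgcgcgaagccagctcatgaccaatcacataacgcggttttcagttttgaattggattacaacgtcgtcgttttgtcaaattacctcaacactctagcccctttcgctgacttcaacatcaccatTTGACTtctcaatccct
AT5G64110: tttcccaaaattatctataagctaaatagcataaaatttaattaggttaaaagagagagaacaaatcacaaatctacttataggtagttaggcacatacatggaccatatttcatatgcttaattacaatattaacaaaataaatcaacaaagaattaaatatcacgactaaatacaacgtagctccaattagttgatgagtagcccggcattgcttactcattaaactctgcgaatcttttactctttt
PRX71: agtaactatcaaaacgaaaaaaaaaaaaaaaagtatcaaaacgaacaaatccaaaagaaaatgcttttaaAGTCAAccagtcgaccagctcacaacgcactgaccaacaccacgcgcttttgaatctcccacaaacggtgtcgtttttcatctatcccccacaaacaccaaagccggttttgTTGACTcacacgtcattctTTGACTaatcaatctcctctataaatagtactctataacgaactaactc
Among the 6 members that rose in Or-1, 4 held it too (AT1G68850, AT2G35380, PER49 and PRX72). The single W-box lay 189 bases before the start of AT1G14550 and 17 bases before that of AT5G39580, and PRX71 held 3, at 180, 68 and 49 bases. A match is a run of letters and not a measured site.

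Of the 53 members, 2 rose in both ecotypes, AT1G68850 and AT2G35380. AT1G68850 was at 151, 166 and 144 CPM on NH4+ and at 27.5, 48.2 and 75.1 CPM on NO3- in Or-1, and at 86.9, 102 and 89.7 CPM against 26.9, 36.4 and 54.4 CPM in Rak-2. It gave a log2 fold change of 1.61 (SE 0.32, adjusted p = 0.00558) in Or-1 and of 1.24 in Rak-2 (SE 0.32, adjusted p = 0.0295, edgeR's quasi-likelihood test), and the groups were apart in both ecotypes. AT2G35380 was at 157, 173 and 143 CPM against 41.4, 72.2 and 94.8 CPM in Or-1 and at 98.3, 135 and 99.6 CPM against 48.0, 49.8 and 45.6 CPM in Rak-2. Again each NH4+ library was above each NO3- library, with a log2 fold change of 1.18 in Or-1 (SE 0.24, adjusted p = 0.00678, edgeR) and of 1.21 in Rak-2 (SE 0.24, adjusted p = 0.00959, edgeR). In Rak-2 the call of AT1G68850 was kept only without NO3- replicate 3 (1.04 to 1.55 over the 6 fits), and that of AT2G35380 was made in each fit.

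A second motif, the AC element of phenylpropanoid and lignin genes, was searched on either strand as ACCTACC, and likewise as ACCAACC, and as ACCTAAC. It occurred in 6.12% of all 27443 windows and in 5 of the 60 family windows (8.33%), and 3 of those 5 belong to AT1G68850, AT2G35380 and PRX52. These windows are shown with the element in capitals, the one of AT2G35380 cut to the 196 bases that no neighbouring gene covers. They span chr1:25885262-25885511 (minus strand) for AT1G68850, chr2:14892299-14892494 (plus strand) for AT2G35380, chr5:1580876-1581125 (minus strand) for PRX52.
AT1G68850: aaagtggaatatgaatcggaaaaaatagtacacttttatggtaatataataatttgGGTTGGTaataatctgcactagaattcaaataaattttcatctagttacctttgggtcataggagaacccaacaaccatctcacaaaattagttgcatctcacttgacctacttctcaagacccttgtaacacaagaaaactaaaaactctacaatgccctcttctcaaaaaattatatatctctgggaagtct
AT2G35380: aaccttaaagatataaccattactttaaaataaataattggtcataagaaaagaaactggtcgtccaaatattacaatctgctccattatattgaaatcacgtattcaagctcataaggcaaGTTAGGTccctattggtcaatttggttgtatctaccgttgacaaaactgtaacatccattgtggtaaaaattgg
PRX52: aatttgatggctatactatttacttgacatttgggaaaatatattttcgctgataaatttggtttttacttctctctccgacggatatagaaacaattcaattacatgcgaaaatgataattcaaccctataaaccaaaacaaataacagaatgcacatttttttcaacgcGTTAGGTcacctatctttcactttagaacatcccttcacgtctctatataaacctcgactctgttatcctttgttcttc
The element began 194 bases before the start of AT1G68850, 74 before that of AT2G35380 and 79 before that of PRX52. The other 2 members with the element were AT1G44970 and PRX53, of which PRX53 was called higher in Or-1 with the replicate block. A G-box, CACGTG, was in none of the 60 windows and in 6.49% of all windows.

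On NH4+, 8 members had a higher and 5 a lower level in Or-1 relative to Rak-2, as did 6.55% and 5.66% of all genes. The 8 became 12 with the replicate block, 14 with DESeq2 and 15 in a fit of the 6 libraries compared. Leaving out Rak-2 NO3- replicate 3 added 7 (AT1G30870, PER35, AT4G26010, PER49, AT5G64100, PRX71 and RHS19). Over all genes, the 1266 higher became 1350 (block), 1439 (DESeq2), 1379 (6 libraries) and 1445 (without that replicate). PER4, PRX52, AT5G39580, AT1G14550, PER58, AT4G37520, AT2G38380 and Prx37 were higher in the tolerant ecotype, and AT5G15180, AT5G40150, PRXR1, PRX25 and PER64 were higher in the sensitive one. The median log2 difference of the members was 0.71 against 0.00 over all genes, and the ecotypes did not overlap for 32 members, against 48.8% of all genes.

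PER4 stood at 51.8, 43.0 and 54.0 CPM in Or-1 on NH4+, 9.46-fold above the 3 Rak-2 libraries already given (log2 difference 3.24, SE 0.62, adjusted p = 0.00336 by edgeR's quasi-likelihood test). PRX52, at 7.73, 2.93 and 6.81 CPM in Rak-2 on NH4+, was 6.07-fold higher in Or-1 (log2 difference 2.60, SE 0.48, adjusted p = 0.00248, edgeR). AT5G39580 was at 195, 183 and 116 CPM in Or-1, 5.79-fold above Rak-2 (adjusted p = 0.00489, edgeR). Each of the Or-1 libraries exceeded each of the Rak-2 libraries for these genes.

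AT1G14550, at 26.0, 28.1 and 22.4 CPM in Or-1 on NH4+, was 5.76-fold higher than in Rak-2 (adjusted p = 0.00558, edgeR), and PER58, at 4.67, 3.61 and 3.18 CPM in Rak-2, was 5.66-fold higher in Or-1 (adjusted p = 0.0152, edgeR). AT4G37520 was at 119.9, 155 and 136 CPM in Or-1 and at 47.8, 44.8 and 29.0 CPM in Rak-2 (log2 difference 1.76, SE 0.40, adjusted p = 0.00874, edgeR). None of these groups overlapped. The abundant members AT2G38380 and Prx37 were 2.31-fold and 2.06-fold higher in Or-1, with 918, 1124 and 1281 CPM against 479, 504 and 455 CPM for AT2G38380.

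Higher in Rak-2 on NH4+ was PRXR1, the most abundant member there, with 5369, 4567 and 5509.6 CPM against 1959, 2158 and 2728 CPM in Or-1 (log2 difference -1.17, SE 0.23, adjusted p = 0.00364, edgeR's quasi-likelihood test). AT5G15180 had a log2 difference of -1.54 (SE 0.30, adjusted p = 0.00337, edgeR). PRX25, a stem lignin peroxidase, was at 205, 180.3 and 142 CPM in Or-1 and at 422, 431 and 292 CPM in Rak-2, and PER64, which works at the Casparian strip, was at 33.1, 34.1 and 32.4 CPM against 61.2, 81.0 and 62.7 CPM. All these groups were apart. AT5G40150 was at 7.00, 6.25 and 6.13 CPM in Or-1 and at 14.2, 10.4 and 19.2 CPM in Rak-2.

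The replicate numbers also paired the 2 ecotypes on NH4+, and the block added AT4G08780 (1.01), PER49 (1.25), AT5G64100 (1.12) and PRX71 (1.62) to the members higher in Or-1 and ended no call. Single libraries ended the calls of Prx37 (Or-1 replicate 2 or Rak-2 replicate 3, 0.88 to 1.17, also lost with other scaling of the libraries), PER58 (Rak-2 replicates 2 or 3, 2.18 to 2.74), PRX25 (Or-1 replicates 2 or 3 or Rak-2 replicates 1 or 2, -1.28 to -0.99), PER64 (Rak-2 replicate 2, -1.11 to -0.88) and AT5G40150 (each library but Rak-2 replicate 2, -1.35 to -0.93).

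On NO3-, 2 of the 53 members were called between the ecotypes by edgeR's quasi-likelihood test. None was higher in Or-1, beside 4.35% of all genes, and 2 (3.77%) were lower, PRX25 and PRX72, beside 4.29% of all genes. At an unadjusted p under 0.05, 4 members were higher and 6 lower, and DESeq2 called 1 higher, RHS19. The ecotypes did not overlap for 11 members, against 26.2% of all genes. PRX72 was at 132, 152 and 116 CPM in Rak-2 on NO3-, all above the Or-1 libraries (log2 difference -1.08, SE 0.19, adjusted p = 0.00268, edgeR). PRX25 was at 86.2, 146 and 197 CPM in Or-1 and at 219.6, 410.2 and 337 CPM in Rak-2 (log2 difference -1.17, SE 0.31, adjusted p = 0.0261, edgeR). PRX25 was lost without Or-1 replicates 1 or 2 or Rak-2 replicates 2 or 3 (-1.47 to -0.90) and in a fit of the 6 NO3- libraries alone, and PRX72 without Or-1 replicates 1 or 2 or Rak-2 replicate 2 (-1.30 to -0.97).

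The NH4+ response itself differed between the ecotypes for 2 members, PER4 and AT5G15180, by the interaction term of the same fit. Over all genes, 1.08% had a higher and 0.15% a lower response in Or-1. PER4 had a log2 fold change of 0.29 (SE 0.56) in the tolerant and of -3.71 in the sensitive ecotype, and the difference was 4.00 (SE 0.83, adjusted p = 0.0431, edgeR's quasi-likelihood test). AT5G15180 had a difference of -2.12 (SE 0.42, adjusted p = 0.0343, edgeR). The differences of AT5G39580 (3.25, SE 0.71, adjusted p = 0.0501, edgeR) and AT1G14550 (3.20, SE 0.71, adjusted p = 0.0532, edgeR) did not pass in this fit. Both passed with the replicate block and with DESeq2, under which 7 and 10 members in place of 1 had a higher response in Or-1. Over all genes, those with a higher response went from 208 to 299 with the block and to 537 with DESeq2. The difference was positive for 37 of the 53 members, with a median of 0.60 against -0.01 over all genes.

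The call of PER4 held in 2 of 12 fits without 1 library, those without Or-1 NO3- replicate 1 or Rak-2 NO3- replicate 3 (3.45 to 4.80 over all), and that of AT5G15180 in 4 (-2.42 to -1.84), those without Or-1 NH4+ replicates 1 or 3 or Rak-2 NO3- replicates 2 or 3. Without Rak-2 NO3- replicate 3, 8 members had a higher response in Or-1, PER4 with AT1G14550, Prx37, AT4G37520, PER58, AT5G39580, AT5G64110 and PRX71. Without Or-1 NO3- replicate 1 there were 3, PER4, AT1G14550 and AT5G39580. Over all genes, 483 and 167 had a higher response in these fits, against 208 with all libraries.

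**Figure D3:**
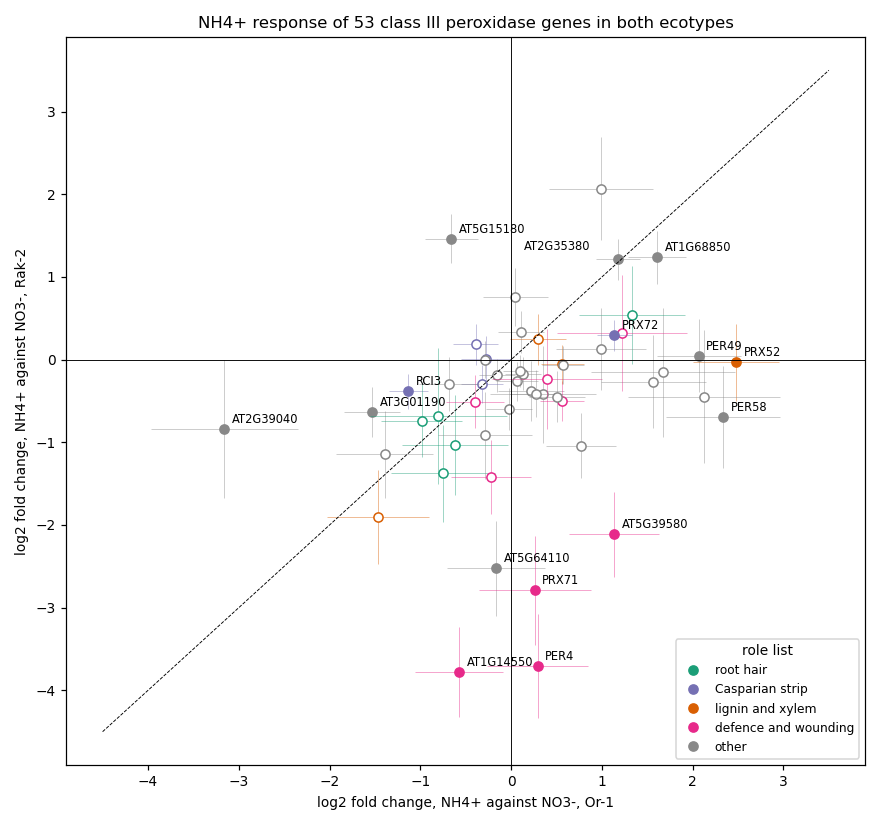
Log2 fold change of NH4+ against NO3- in Or-1 (horizontal) and Rak-2 (vertical) for 53 members, with bars of 1 SE, colours for the role lists, filled points for members called in either ecotype and a dashed line of equal response. AT1G68850 and AT2G35380 lie near the line at the upper right, PRX52, PER58 and PER49 to the right near the horizontal axis, and PER4, AT1G14550, AT5G39580, PRX71 and AT5G64110 far below it.

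By role, the 9 tested genes of the defence and wounding list gave 4 of the 5 members that fell in Rak-2. Their median log2 fold change was -1.42 in Rak-2 and 0.29 in Or-1. In Or-1 the edgeR fit of all 12 libraries without the block called none, 2 had an unadjusted p under 0.05 and DESeq2 called none. With the block, AT5G39580 (1.28) and PRX53 (1.24) were called higher in Or-1. Without Or-1 NO3- replicate 1, edgeR also called AT5G39580 higher there (1.85). On NH4+, 4 of the 9 were higher in Or-1 (PER4, AT1G14550, AT5G39580 and Prx37), and the block added AT5G64100 (1.12) and PRX71 (1.62). On NO3- the edgeR fit of all 12 libraries without the block called none. PRXCB was called lower in Or-1 with the block (-1.53) and by DESeq2 (-1.60), and PRX71 without Rak-2 NO3- replicate 3 (-1.79). The summed level of the list was 4704 ± 342 TPM in Or-1 on NH4+ and 3601 ± 812 TPM on NO3-, and 2258 ± 224 against 3813 ± 1302 TPM in Rak-2 (SD, n = 3). PRXCB, which with PRX33 makes the oxidative burst after the sensing of microbes, was not called in the fit without the block, and neither were AT2G37130, PRX53 or AT5G64100. AT5G64100, the most abundant of these 4, was at 294, 253 and 230.2 CPM on NH4+ in Rak-2 and at 1023, 807 and 248 CPM on NO3-, where replicate 3 lay within the NH4+ range (log2 fold change -1.42, adjusted p = 0.0625, edgeR). With the block (-1.24) and by DESeq2 (-1.41) AT5G64100 was called lower in Rak-2.

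The 5 tested root hair genes had scattered levels, and the edgeR fit of all 12 libraries called none. These peroxidases cross-link extensins in the walls of growing hairs. Their summed level was 301 ± 65.2 TPM in Or-1 on NH4+ and 462 ± 132 TPM on NO3-, and 125 ± 53.0 and 212 ± 138 TPM in Rak-2 (SD, n = 3). All 5 had a positive log2 difference of Or-1 against Rak-2 on both nitrogen sources, from 1.03 to 1.66 on NH4+ and from 0.67 to 1.28 on NO3-. AT1G30870 was at 42.3, 31.6 and 19.7 CPM in Or-1 on NH4+ and at 4.77, 7.69 and 17.2 CPM in Rak-2, without overlap (adjusted p = 0.0721, edgeR). RHS19 was at 82.6, 96.5 and 69.6 CPM against 30.0, 41.7 and 49.6 CPM (adjusted p = 0.118, edgeR). On NH4+, 4 of the 5 had an unadjusted p under 0.05 (AT1G30870, PER35, AT4G26010 and RHS19), DESeq2 called the first 3 of these, and edgeR called all 4 once Rak-2 NO3- replicate 3, a library outside this comparison that enters the shared estimate of spread, was left out. In fits of the 6 libraries compared, AT1G30870, AT4G26010 and RHS19 were called on NH4+ and PER35 in the response of Or-1 (1.35). Without Rak-2 NO3- replicate 3, AT4G26010 (-1.86) and RHS19 (-1.17) fell in Rak-2. The summed level of 9 root hair regulators and wall genes moved with them, from 66.6 to 157 CPM in Or-1 on NH4+, from 126 to 263 on NO3-, from 19.2 to 55.0 in Rak-2 on NH4+ and from 16.6 to 153 on NO3-, and its part was not tested. Of the 9, the basic helix-loop-helix regulators RHD6 (log2 difference 1.89) and RSL4 (2.60) were higher in Or-1 on NH4+ (adjusted p = 0.0399 and 0.0170, edgeR). RSL4 was close to the limit of detection, at 1.60, 1.79 and 0.681 CPM in Or-1 and at 0.251, 0.262 and 0.147 CPM in Rak-2.

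Among the 5 Casparian strip genes, PRX72 rose and RCI3 fell in Or-1 on NH4+, and in Rak-2 edgeR and DESeq2 called none and no unadjusted p was under 0.05. Their summed level was 1099.7 ± 105 TPM in Or-1 on NH4+, 1444 ± 285 TPM on NO3-, and 1553 ± 274 and 1720.3 ± 355 TPM in Rak-2 (SD, n = 3). All 5 had a negative log2 difference of Or-1 against Rak-2 on both nitrogen sources, called for PER64 on NH4+ and for PRX72 on NO3-. AT1G44970 was at 19.6, 19.7 and 28.0 CPM in Or-1 on NH4+ and at 33.1, 31.0 and 33.2 CPM in Rak-2 (adjusted p = 0.184, edgeR), and AT4G11290 overlapped between the groups. MYB36, the transcription factor that switches on Casparian strip genes, had the lower level in Or-1 on both sources (log2 differences -1.23 and -1.04, adjusted p = 0.000482 and 0.00161, edgeR), with 7.49, 7.33 and 7.44 CPM against 15.5, 18.8 and 17.8 CPM on NH4+. CASP4, a membrane protein of the strip, fell in Or-1 on NH4+ (log2 fold change -1.03, adjusted p = 0.00314, edgeR).

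Of the 4 tested lignin and xylem genes, PRX52 rose in Or-1. In the response of Rak-2, edgeR called none in the fit of all libraries without the block. AT5G51890 was called lower in Rak-2 with the block (-1.82), by DESeq2 (-1.91) and without Rak-2 NO3- replicate 3 (-2.34). AT4G33420 was at 397, 523 and 598 CPM on NH4+ and at 235, 408 and 384 CPM on NO3- in Or-1, overlapping, and its adjusted p was 0.139 (edgeR). AT5G51890 was at 1.17, 0.769 and 1.56 CPM on NH4+ against 4.80, 2.71 and 2.21 CPM on NO3- in Or-1 and at 1.51, 0.837 and 0.882 CPM against 6.56, 4.41 and 1.20 CPM in Rak-2. The log2 fold change of AT5G51890 was -1.47 in Or-1 (adjusted p = 0.104, edgeR) and -1.90 in Rak-2 (adjusted p = 0.0514, edgeR), and neither was called.

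The other 30 tested genes, without a role list, held 4 of the 6 increases and 2 of the 3 decreases of Or-1. Their median log2 fold change was 0.18 in Or-1, against -0.26 for Rak-2. Over all 5 comparisons of the fit without the block, 22 of the 53 members were called at least once and 31 were not, some of which were called with the block or another alternative, as given above. AT3G32980, AT5G19890 and AT4G08780, which rank 3 to 5 by level, were among the 31, and AT4G08780 was called on NH4+ with the block. In each of the 32 calls between a pair of groups the libraries of the groups were apart. That reuses the values behind the calls and is no further support for them, and the share among all called genes was not computed.

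In all, 12 pairs of members are direct neighbours on a chromosome, and 9 of these pairs had both genes tested. PER4 and AT1G14550, transcribed away from each other with 3216 bases between them and 73.6% identical, fell together in Rak-2. AT5G64110 and PRX71, 64.4% identical, also fell together there. AT5G64100, the third gene of that row, had a log2 fold change of -1.42 and was not called in the fit without the block. It was called lower there with the block (-1.24), by DESeq2 (-1.41) and without Rak-2 NO3- replicate 3 (-1.82). PER58 and AT5G19890, 60.9% identical, had log2 fold changes of 2.33 and 0.10 in Or-1. AT5G19890 was at 1056, 1152 and 791 CPM on NH4+ and at 809, 968 and 1022 CPM on NO3-, so its groups overlapped.

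Pairs of higher identity gave calls for one gene of the pair in 3 cases on NH4+. AT4G37520 was higher in Or-1 than in Rak-2 by 1.76 on the log2 scale and its neighbour AT4G37530, 92.4% identical, by 0.64 (adjusted p = 0.0645, edgeR), which was not called. AT2G38380 differed by 1.21 and AT2G38390, 90.6% identical, by -0.39 (adjusted p = 0.628, edgeR). Prx37 differed by 1.04 and AT4G08780 by 0.96 (adjusted p = 0.0444, edgeR), the latter short of the fold change threshold alone. The differences within pairs were not tested.

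**Figure D4:**
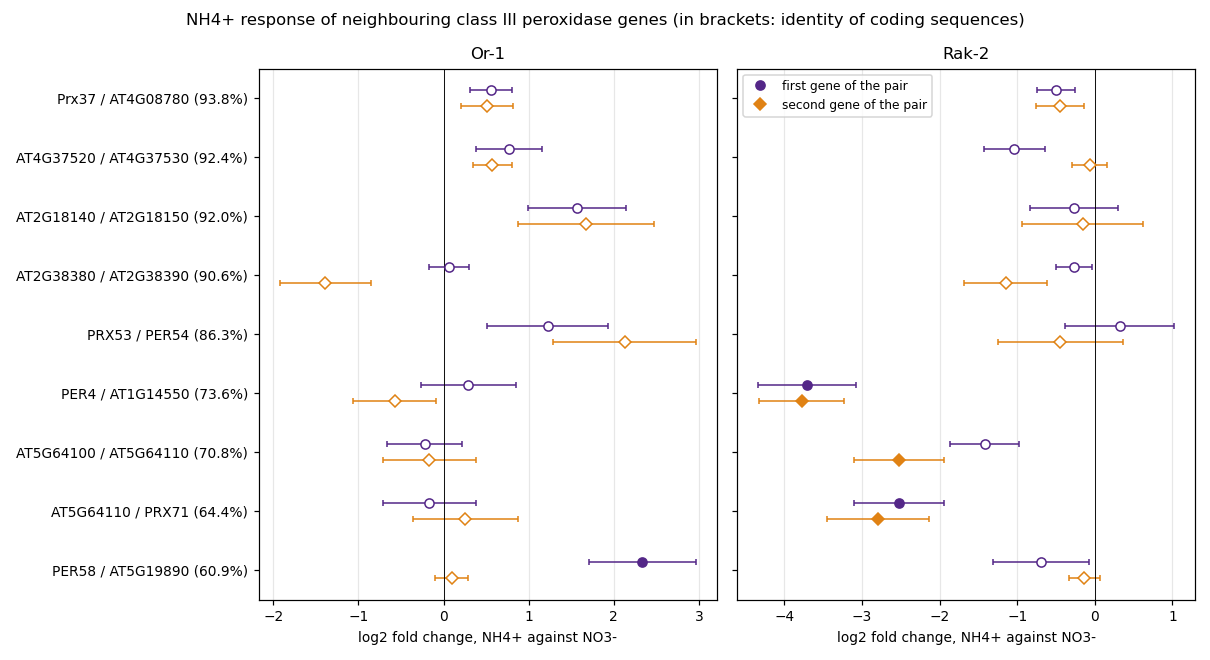
Log2 fold change of NH4+ against NO3- for the 9 pairs of neighbouring members, with bars of 1 SE, Or-1 on the left and Rak-2 on the right, pairs ordered by identity of their coding sequences and filled symbols for called genes. Both genes of PER4 and AT1G14550 and of AT5G64110 and PRX71 lie far below 0 in Rak-2, and PER58 lies above 2 in Or-1 while AT5G19890 lies near 0.

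Of 13 further class III peroxidases outside the list, 6 were tested and 2 called, both between the ecotypes. Not all of them were weakly expressed, since PER43 was at 77.4 to 129 CPM in the 12 libraries. PER8 was higher in Or-1 on both nitrogen sources (log2 differences 2.21 and 3.17) and PER40 on NO3- (1.14) by edgeR's quasi-likelihood test. The peroxidases use H2O2 that derives from the superoxide of NADPH oxidases, of which 8 of 10 were tested. RBOHE rose in Or-1 (log2 fold change 1.46) and RBOHB fell in Rak-2 (-1.44), and RBOHD, the oxidase of the immune burst, was higher in Or-1 than in Rak-2 on NH4+ (1.00, adjusted p = 0.0426, edgeR). Of all genes, 5.26% rose in Or-1 and 3.4% fell in Rak-2, and 6.55% on NH4+ and 4.35% on NO3- were higher in Or-1. RBOHD was at 331, 480.4 and 548 CPM in Or-1 on NH4+ and at 216, 235 and 228 CPM in Rak-2, without overlap.

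Laccases, copper enzymes that oxidise monolignols with oxygen in place of H2O2, gave 6 calls in the response of Or-1. Of 16 tested, 6 rose there, LAC1, LAC3, LAC5, LAC7, LAC13 and LAC16, and none was called lower, beside 5.26% and 3.6% of all genes. LAC17 had a log2 fold change of -0.80 (adjusted p = 0.0412, edgeR's quasi-likelihood test), short of the fold change threshold alone. In Rak-2, LAC7 and LAC13 rose and LAC11, which works in vessel lignin, fell, beside 2.69% and 3.4% of all genes. LAC1 was at 29.8, 43.7 and 42.8 CPM in Or-1 on NH4+ and between 3.23 and 5.65 CPM in the other 9 libraries, and the log2 fold change of LAC1 was 3.45 higher in Or-1 than in Rak-2 (SE 0.33, adjusted p = 0.00267, edgeR's quasi-likelihood test). Between the ecotypes, LAC1, LAC8, LAC9 and LAC15 were higher in Or-1 on NH4+ and LAC13 lower, and on NO3- LAC15 was higher and LAC13 lower. Of all genes, 6.55% were called higher and 5.66% lower in Or-1 on NH4+, and 4.35% and 4.29% on NO3-. UPB1, a repressor of root tip peroxidases, was called in no comparison, with a log2 fold change of 0.77 in Or-1, against 0.67 for Rak-2.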

How the data were processed

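Roots of Or-1 and Rak-2 were sequenced after 1 day on NH4+ or NO3- (NEBNext Ultra libraries, HiSeq 2500). The authors deposited raw counts per gene with a gene length in bases. The aligner, the counting tool, the genome build and the use of strand are not given in the sources used here. Tables of the authors' own comparisons (fold changes, p-values and FPKM of the genes they called) were not used.

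Counts were tested with edgeR 4.0.16 in R 4.3.3 (filterByExpr, TMM, quasi-likelihood F-test) in one fit over the 12 libraries with 4 group means, and p-values were adjusted by Benjamini-Hochberg over all 19327 genes. The comparisons were 4 pairwise contrasts and their interaction. TPM was computed from the deposited counts and lengths. DESeq2 1.42.0, library size alone, upper quartile scaling, no filter, a fit of the 6 libraries compared, a replicate block and leaving out each library were the alternatives. The script was tested on simulated data. The members, role lists and partner lists were chosen with earlier results of these data known, and the motifs after values had been seen.

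All members called were named, with library values for up to 8 per comparison with the largest change, and for genes of a role list where that list was described. UPB1 is a list of its own and was named without a call.

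The methods of the study speak of biological replicates, and where libraries shared growth conditions the p-values measure only the spread between them. Pairing by replicate number was checked on deviations from group means. Same-numbered samples correlated at 0.32, 0.30 and 0.46 for Or-1 on NH4+ and NO3-, and at 0.29, 0.33 and 0.37 for the ecotypes on NH4+, all over the limit of 0.1. They did not all pass it in Rak-2 (0.16, -0.0007 and 0.34) or on NO3- (0.54, 0.084 and 0.57).

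Sequences were read from RefSeq TAIR10.1 with Biopython 1.88. Since protein sequences were not used here, identity between members was computed on coding bases, where the plan had named proteins.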

Additional observations from a re-analysis of the deposited data

Results flagged for a closer look

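The response to NH4+ differed between the ecotypes, by the interaction term of the edgeR fit, for 2 members. For PER4 the log2 fold change was 4.00 higher in Or-1 than in Rak-2 (adjusted p = 0.0431, edgeR), and each of the 3 Rak-2 NH4+ libraries was below each of the other 9. For AT5G15180 the difference was -2.12 (adjusted p = 0.0343, edgeR), and each of the 3 Rak-2 NH4+ libraries was above each of the other 9. Groups of 3 libraries were too small to look for single outlying libraries by a gap test.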

How the results depend on the processing

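No member called in a comparison of the reported fit changed direction in that comparison under an alternative. Members that were not called were not checked for this. Library size alone and upper quartile scaling changed no count of members called by over 1.5 times, but the median of the members on NO3- went from -0.06 to 0.03 with library size alone. The median log2 change of all genes moved from -0.01 to 0.11 in Rak-2 with library size alone, and from -0.01 to -0.14 and -0.12 in the interaction with library size alone and upper quartile scaling. In Rak-2, library size alone also turned the 519 higher and 658 lower genes of the whole table into 687 and 545 (615 and 586 with upper quartile scaling), on NH4+ the 1266 and 1093 became 1128 and 1203 (1131 and 1242), and in the interaction the 208 and 29 became 162 and 53. With DESeq2 the count was 8 lower members in Rak-2, 14 higher in Or-1 on NH4+, 1 higher on NO3- and 10 with a higher response in Or-1. Over all genes DESeq2 called 831, 1439, 947 and 537 in that order, where the reported fit called 658, 1266, 841 and 208. Fits of the 6 libraries compared gave 15 higher on NH4+ and 1 lower on NO3-, beside 1379 and 587 of all genes. Without the filter on low counts 2 members had a higher response in Or-1. With the replicate block, 11 members rose in Or-1 and 7 had a higher response there (1 in the reported fit), and in Rak-2 4 rose and 7 fell. Of all genes, the block called 1133 and 299 for the first 2 counts, and in Rak-2 662 rose and 704 fell. For the Or-1 response and the NH4+ comparison the block changed no call other than those given beside them.

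Over fits without 1 library, the lower members numbered 2 to 11 in Rak-2, 3 to 5 on NH4+ (higher 7 to 9, each fit leaving out a library compared) and 0 to 3 on NO3-. Higher members on NO3- numbered 0 to 1. A higher response in Or-1 was called for 0 to 8 members and a lower one for 0 to 1. Over all genes these fits gave 61 to 483 with a higher and 7 to 130 with a lower response. Of 216 such values of called members, 66 were no longer called, and the libraries that ended calls are named in the report. The cause of these changes was not tested. Without PRXR1 the family sum was 16605 TPM in Or-1 on NH4+ and 14925 on NO3-, and 12462 and 15522 TPM in Rak-2. With 3 libraries a group, a difference that was not called was not shown to be absent, and RHS18, AT4G31760 and AT2G39040 rest on few counts.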
